A study of Mus musculus with 4 samples.

Results

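The 8 genes Bcl2, Bcl2l1, Mcl1, Bcl2l11, Bbc3, Pmaip1, Bax and Bak1 encode the core survival and death proteins of the BCL2 family, and open chromatin around them was compared between CD4 T cells with and without TOX. Peaks of 4 ATAC-seq libraries that overlapped by at least 1 bp were merged, which gave 97394 regions, and a region was taken for a gene when that gene was the nearest protein-coding RefSeq interval (GRCm38) within 100 kb of the region's midpoint. This rule gave 85 regions. Bcl2 had 36 of them, Bcl2l1 and Pmaip1 13 each, Bcl2l11 8, Mcl1 7, Bbc3 5, Bak1 2 and Bax 1. The regions of 1 gene share a locus and are not independent of each other.

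BCL2 family proteins decide whether the outer mitochondrial membrane stays intact. BCL2, BCL-XL (from Bcl2l1) and MCL1 keep cells alive by holding back the pore-forming proteins BAX and BAK, and the BH3-only proteins BIM (from Bcl2l11), PUMA (from Bbc3) and NOXA (from Pmaip1) promote death by binding the survival proteins or by activating BAX and BAK. In T cells BCL2 and MCL1 are needed for survival of resting cells, and BIM removes many effector cells as a response ends.

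The cells were SMARTA CD4 T cells of the mouse, whose transgenic T cell receptor recognizes the GP61 peptide, transferred as naive cells into hosts that had received cytoxan, a lymphocyte-depleting drug, and that carried B16-GP61 melanoma. On day 11 the tumor-draining lymph node was taken and the cells were sorted from it. TOX wild-type (WT) cells carried both congenic markers (Ly5.1+ Ly5.2+) and were taken from the gate high for PD1, LAG3 and also CD39, while TOX knockout (KO) cells carried Ly5.1 alone (Ly5.1+ Ly5.2-) and were taken from the gate low for these proteins, so genotype, gate and congenic marker cannot be told apart. How Tox was deleted is not given in the sources used here, and neither is whether the 2 libraries of each genotype came from separate mice. Any p-value below measures the spread between these libraries, which may be technical, and with 2 libraries against 2 an exact two-sided permutation test cannot go below 0.333.

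Peaks numbered 56852 and 61489 in the WT lists and 43078 and 61773 in the KO lists, so KO-1 stood apart by its short list. Below, pairs of values are given for replicate 1 and then replicate 2 of a genotype. Read depth is unknown, and between 1603 and 1900 peak numbers were missing from each list, so an absent peak can also be a peak the authors removed. All 14 T cell marker genes had a region with a peak in each library, with peaks in 97 and 107 of their 186 regions in WT and in 102 and 139 in KO. The 12 B cell marker genes had peaks in 95 and 103 of 125 regions in WT but in 11 and 19 in KO, and Ms4a1 and Fcer2a were among those with none in either KO library. Of 12 myeloid and dendritic cell markers, 11 were the nearest gene of a region, and they had peaks in 66 and 73 of 94 regions in WT and in 30 and 48 in KO, and Csf1r, Adgre1, Itgax and Cd68, which had peaks in WT, had none in KO. The 6 melanocyte markers had peaks in 8 and 8 of 17 regions in WT and in 7 and 13 in KO, and the 2 CD8 T cell genes in 2 and 1 of 6 in WT and in 1 and 5 in KO. B cells and myeloid cells use BCL2 family genes as well, and the part of such cells in the differences below was not tested. In bulk libraries, fewer cells with an open site and less opening per cell cannot be told apart.

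The chromatin over an annotated start of each of the 7 members in the promoter table, all but Pmaip1, was open in all 4 libraries. To set libraries side by side, the highest deposited fold enrichment of each region (a ratio to the peak caller's background) was ranked within each library over the 26867 regions that had a peak in all 4, so that 100 stands for the strongest shared region. Among all 9957 regions of the genome that held a RefSeq start site, 86.8% had a peak in every library, so an open start is the usual state and not particular to these genes. The median start-site region of the genome had a percentile between 75.5 and 78.5 in the 4 libraries.

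Among the survival genes the start of Bcl2l1 ranked above the median start-site region in every library, and the starts of Bcl2 and Mcl1 ranked below it in every library. Both WT values were above both KO values at Bcl2l1 alone, by a narrow gap. The Bcl2 start (chromosome 1, 106713657 to 106714901, gene interval 106538176 to 106714290 on the minus strand) showed fold enrichments of 10.8 and 9.02 in WT and of 6.70 and 11.8 in KO. Its percentiles were 74.5 and 64.1 in WT and 64.8 and 70.7 in KO. The KO percentiles lay between the WT percentiles, so the groups overlapped. The 250 bases before this start are shown because the merged region covers them whole. They are 74.8% G and C, against a median of 52.4% over all such windows, and capitals mark 7 matches to the GC box letters GGGCGG on either strand.

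Bcl2 promoter: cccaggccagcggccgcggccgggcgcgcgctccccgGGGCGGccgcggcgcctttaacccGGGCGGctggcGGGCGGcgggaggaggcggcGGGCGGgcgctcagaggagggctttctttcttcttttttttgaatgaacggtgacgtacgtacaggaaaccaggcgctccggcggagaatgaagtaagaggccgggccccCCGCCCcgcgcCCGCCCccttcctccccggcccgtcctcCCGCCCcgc

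This sequence, from RefSeq on GRCm38.p6, reads 5′ to 3′ along the gene and lies at chr1:106714291-106714540. At least 1 GC box match stood in 32.7% of all 32817 windows of this length in the promoter table. The start of Bcl2l1, whose BCL-XL protein takes over much of the survival function in activated T cells, lay at chromosome 2, 152830563 to 152831896, held 2 of its 3 annotated start sites and had the highest percentiles of these start regions. They were 86.9 and 89.2 in WT against 83.9 and 84.2 in KO. Both WT values were above both KO values, by a gap of 2.66 points. At the start of Mcl1, a short-lived protein required by most lymphocytes, the percentiles were 67.1 and 67.6 in WT against 76.2 and 63.6 in KO (chromosome 3, 95658328 to 95659877), and the groups overlapped.

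Among the BH3-only genes the start of Bbc3 and the first start of Bcl2l11, which was counted for the overlapping gene Acoxl, ranked higher in both WT libraries. By the percentile among shared regions, the later start of Bcl2l11 and the region at the end of Pmaip1 with the lower coordinate did not separate the genotypes. The Bbc3 region (chromosome 7, 16309178 to 16311380) spans 3 annotated start sites of PUMA. Its fold enrichment was 5.79 and 5.32 in WT against 2.99 and 3.37 in KO, and its percentiles were 40.6 and 34.0 against 9.90 and 3.78. The WT values were thus well above the KO values, with a gap of 24.1 points between the lower WT and the higher KO library. The genotype means were 37.3 ± 4.68 in WT and 6.84 ± 4.33 in KO (SD, n = 2 each), and all 4 percentiles were below that of the median start-site region of the genome. Of all shared start-site regions, 3.96% had WT above by a gap of at least 10 points.

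Bcl2l11 had a pair of start regions. The one over its first start site (chromosome 2, 128125546 to 128126698) lies in the intervals of both Acoxl and Bcl2l11 and was counted for Acoxl, so it is outside the 85. Its percentiles were 59.2 and 58.7 in WT and 41.6 and 29.7 in KO, with both WT libraries above by a gap of 17.1 points. The region over the later start site (128126954 to 128128179) had 60.1 and 55.1 in WT against 59.4 and 45.7 in KO, and there the groups overlapped. By the percentile of the deposited −log10 q the later start also ranked higher in both WT libraries. The same held by the percentile among all peaks of each list (80.1 and 78.8 in WT against 74.5 and 75.8 in KO).

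Bbc3 and Bcl2l11 are known targets of forkhead factors of the FOXO family, and their sites are shown because they are the only 2 of the 12 member start sites in the promoter table with the forkhead letters GTAAACA, on either strand, in the 250 bases before them. Capitals mark the match.

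Bcl2l11 site: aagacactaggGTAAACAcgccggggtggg

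Bbc3 site: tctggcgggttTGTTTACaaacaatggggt

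The Bcl2l11 site lies at chr2:128125800-128125829 and begins its match 227 bases before the start site at 128126038. The Bbc3 site lies at chr7:16310083-16310112, with the match reading as the reverse complement and beginning 167 bases before the start site at 16310261. Both are given on the plus strand of GRCm38.p6, which is the strand of both genes, and both lie within the regions above. Of all windows in the table, 3.16% held these letters. A match describes the sequence and does not show that a factor is bound. Pmaip1 has no entry in the promoter table. The region over the lower-coordinate end of its interval (chromosome 18, 66457902 to 66459398) had percentiles of 86.2 and 77.4 in WT against 66.6 and 84.0 in KO, and the groups overlapped.

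The 2 pore-forming genes had few regions, all of them open in each library. Bax had a single region, over its start (chromosome 7, 45466310 to 45467230), with percentiles of 80.8 and 83.0 in WT and 75.7 and 79.6 in KO. The WT values were higher by a gap of 1.14 points, and ranked among all peaks of each list the groups overlapped. Bak1 had its start region (chromosome 17, 27027920 to 27028977), at 60.9 and 52.7 in WT and 59.3 and 51.6 in KO, and a neighbour at 27027280 to 27027900, at 38.4 and 49.5 against 43.0 and 57.6. Neither separated the genotypes, and both also lie in the interval of Ggnbp1. The 250 bases before the Bax start are shown because they hold the E-box letters CACGTG, found in 6.02% of all windows, and 2 GC box matches. Capitals mark these.

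Bax promoter: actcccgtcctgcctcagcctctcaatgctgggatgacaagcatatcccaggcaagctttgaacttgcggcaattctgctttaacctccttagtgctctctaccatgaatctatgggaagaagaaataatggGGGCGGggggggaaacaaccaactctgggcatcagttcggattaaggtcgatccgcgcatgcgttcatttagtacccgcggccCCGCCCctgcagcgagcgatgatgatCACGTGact

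It lies at chr7:45466899-45467148, on the minus strand. The other letters searched on either strand in the 12 member windows were TTCNNNGAA for STAT factors, TGANTCA for AP-1, TATAAA for the TATA box and the cyclic AMP response element, with no match, TGTGGT for RUNX factors, matched at Bak1, and CCGGAA for ETS factors, matched at Mcl1 and Bcl2l11. Over all windows, 7.01% held the STAT, 6.75% the AP-1, 12.4% the TATA, 1.55% the cyclic AMP, 14.0% the RUNX and 12% the ETS letters. The CACGTG letters were also found before 1 of the Bbc3 starts.

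**Figure D1:**
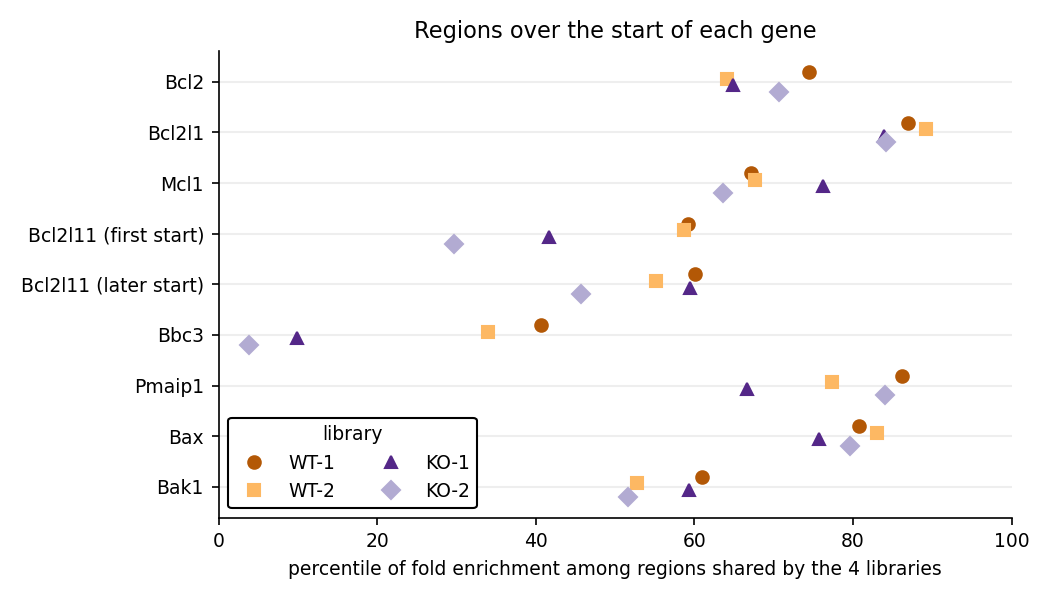
Percentile of the fold enrichment among the 26867 shared regions (x axis, 0 to 100) for the region over the start of each gene, or over the lower-coordinate end of Pmaip1, with 1 symbol per library. WT and KO symbols lie apart at Bbc3 (40.6 and 34.0 against 9.90 and 3.78) and at the first start of Bcl2l11 (59.2 and 58.7 against 41.6 and 29.7) and close together or mixed elsewhere.

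More member regions had a peak in the WT libraries than in the KO libraries, but the members' share of each library's regions hardly moved. A peak was found in 63 and 65 regions in WT and in 44 and 59 in KO. The means were 64 ± 1.41 in WT and 51.5 ± 10.6 in KO (SD, n = 2 each), a difference of 12.5 regions with the smallest p the design allows (two-sided exact permutation p = 0.333). Without KO-1 the difference was 5 regions, and without KO-2 it was 20.5. Of all regions with a peak in a library, members made up 0.119% and 0.111% in WT and 0.110% and 0.101% in KO. The low count in KO-1 thus went with its short list, and 7 member regions lacked a peak in KO-1 alone against 2 in KO-2 alone, where 5542 and 765 of all regions did.

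The counts by gene followed the same order in part. Bcl2 had peaks in 23 and 25 of its 36 regions in WT and in 15 and 23 in KO, so KO-2 equalled WT-1. Bcl2l1 had 10 and 10 of 13 in WT and 6 and 7 in KO, with both WT libraries above both KO libraries (exact permutation p = 0.333, not adjusted over the 8 genes). With WT before KO, Bcl2l11 had 5, 8, 3 and 5 of 8, Pmaip1 12, 10, 8 and 11 of 13, Mcl1 6, 6, 5 and 6 of 7, and Bbc3 4, 3, 4 and 4 of 5. Bcl2l1 was the only member whose counts did not overlap between the genotypes. Both WT counts were above both KO counts in 17.8% of the 16399 genes with a region and in 37.1% of the 1357 genes with at least 13 regions, so this is no result about Bcl2l1. At Bcl2, 12 regions had a peak in 1 library alone, 6 of them in KO-2.

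**Figure D2:**
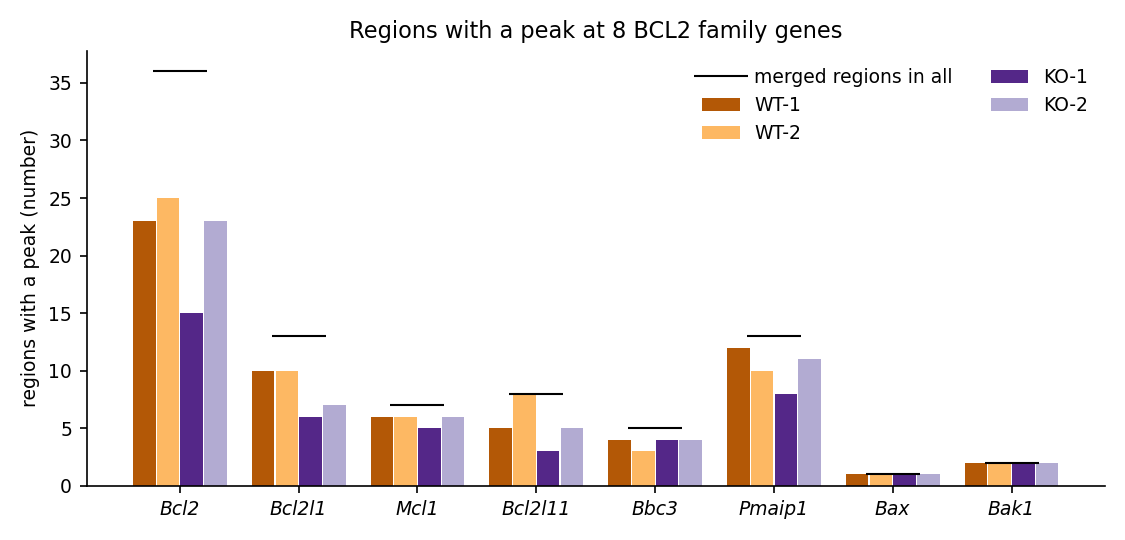
Number of merged regions with a peak (y axis) for each gene (x axis), as 1 bar per library, with a black line at the number of merged regions of the gene. KO-1 is the lowest bar at Bcl2 (15), Bcl2l1 (6), Bcl2l11 (3) and Pmaip1 (8), and Bax and Bak1 have a peak in each of their regions in every library.

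Of the 85 regions, 12 were WT-only, meaning peaks in WT-1 and WT-2 with none in KO-1 or KO-2, and none was the reverse, KO-only. The WT-only share was 14.1%, where 8.80% of all regions in the genome and 9.65% of those with a gene within 100 kb were WT-only. A region with a peak in 1 library alone can never be WT-only. Such regions made up 24.7% of member regions, but 48.4% of all regions and 42.2% of those with a gene within 100 kb. The shares thus rest on unlike mixes of regions, and the gap between them is no result about the members. KO-only regions made up 1.78% of all regions, and a count of 0 among 85 allows a share of up to 3.53% by counting error if the regions were independent, which those of 1 gene are not. No test was run on the WT-only share, since regions of a gene are not replicates. It was 13.2% (5 of 38) among the 20000 strongest peaks of each library, against 8.60% of all regions, and 1 region was KO-only there, where 6.30% of all regions were. At a −log10 q of at least 5 and 10 the WT-only share was 19.7% and 22% of member regions, against 13.5% and 13.2% of all regions. It was 20% against 9.78% where a peak had to cover at least 50% of the region. With genes within 10 kb it was 15.4% against 8.8%. The order turned when a WT library was left out. Without WT-1 it was 21.8% of member regions against 24.2% of all regions, and without WT-2 18.5% against 20.9%. With 1 WT library left, a region with a peak in that library alone counts as WT-only, so the rule differs from the main one. Leaving out KO-1 gave 14 WT-only and 10 KO-only of 83 member regions, where 10.4% and 22.3% of all regions were. Leaving out KO-2 gave 19 and 4 of 78, where 17.8% and 11.8% of all regions were.

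The WT-only regions lay away from the starts. None held a start site of its gene, 8 lay inside the gene interval and 4 outside, and they were 234 to 994 bp wide. Away from start sites WT-only regions made up 15.6% of member regions and 9.47% of all regions. There, 27.3% of member regions and 53.5% of all regions had a peak in 1 library alone, so these shares also rest on unlike mixes. Of the 8 member regions over a start site of any gene, 0 were WT-only and 0 KO-only, where 2.84% and 0.352% of all start-site regions were. The survival genes had 9 of 56 regions WT-only (16.1%) and the death genes 3 of 29 (10.3%), where 8.80% of all regions were. Regions with a peak in 1 library alone made up 30.4% of the first group and 13.8% of the second. The 2 shares thus also rest on unlike mixes and are no contrast between survival and death genes. All 3 of the death genes stood at BH3-only genes, as the 3 regions of Bax and Bak1 had a peak in every library.

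Bcl2 had 5, all inside the gene. Given as the fold enrichment in both WT libraries, the region 161256 bp downstream of the start (106552849 to 106553220) had 5.49 and 7.47, and that at 18372 bp (106695668 to 106696168) had 6.88 and 4.97. These were the stronger ones, between the percentiles 63.3 and 78.3 among all peaks of their lists. The others lay 143170 bp (106571004 to 106571237, 3.28 and 2.54), 118840 bp (106595286 to 106595614, 2.75 and 5.23) and 36017 bp downstream (106678053 to 106678494, 3.21 and 3.39). The ones at 143170 and 36017 bp had a KO peak 388 and 444 bp away. Bcl2 also held 10 regions open in all libraries, the most evenly high of them 66753 bp inside the gene (106647178 to 106647896). It had fold enrichments of 9.47 and 9.67 in WT and 8.11 and 14.9 in KO. Its percentiles among shared regions were 67.7 and 67.7 in WT against 75.0 and 85.6 in KO, with both KO values above. Ranked among all peaks of each list the groups overlapped there. The WT-only share of Bcl2, 13.9%, came from 5 of 36 regions.

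**Figure D3:**
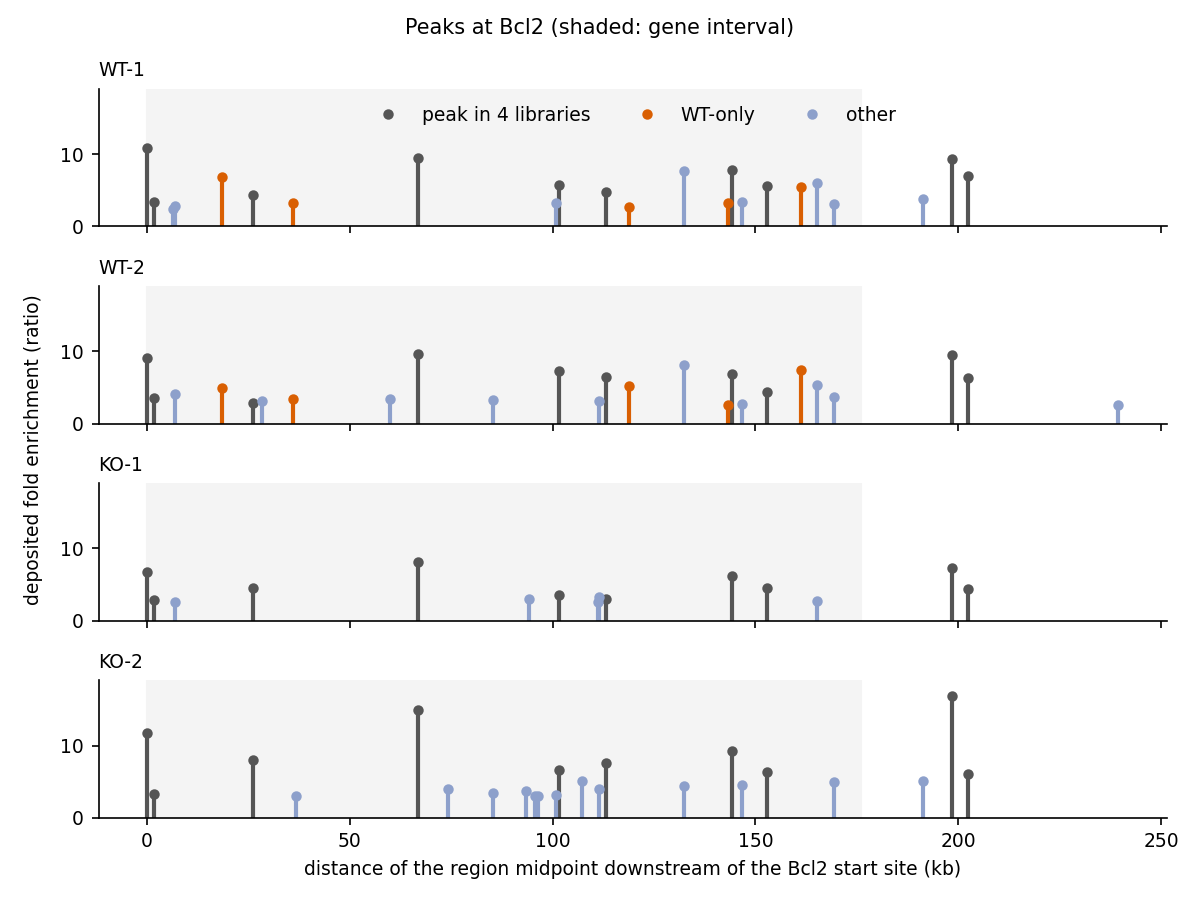
Deposited fold enrichment (y axis, a ratio) of each peak region at Bcl2 against the distance of its midpoint downstream of the start site (x axis, kb), with 1 panel per library and the gene interval shaded. The 10 regions with a peak in all libraries are grey, the 5 WT-only regions, which appear in the WT panels alone, orange, and the rest blue.

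Bcl2l1 had 3 weak WT-only regions in the gene, at 152803170 to 152803433 (fold 3.36 and 2.54), 152810111 to 152810581 (3.92 and 2.97) and 152816390 to 152816787 (3.06 and 2.83). The KO peak nearest to any of them was 8723 bp away, and none passed a −log10 q of 5 in both WT libraries. Mcl1 had 1, 4400 bp before its interval (95652048 to 95653041, 3.89 and 4.96), with a KO peak 727 bp away. Bcl2l11 had 1, 40765 bp past the gene in the long noncoding RNA gene Gm14009 (128203116 to 128203508, 4.36 and 4.93), with a KO peak 648 bp away.

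Pmaip1 had the strongest WT-only region of the family, 20760 bp from the gene (chromosome 18, 66437534 to 66438155). Its fold enrichment was 8.96 and 10.4 in WT, at the percentiles 82.7 and 87.1 of their lists, and the nearest KO peak lay 3702 bp away. The other, 5133 bp from the gene (66453161 to 66453781), had 4.16 and 4.49. Of the 12 regions, 7 had a −log10 q of at least 5 in both WT libraries and 5 of at least 10. The share of all WT-only regions above these limits was not computed, so the counts describe these regions and are no result about the members. The 12 had median list percentiles of 46.9 and 60.1 in the WT libraries, and all 8567 WT-only regions 42.5 and 46.2.

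**Figure D4:**
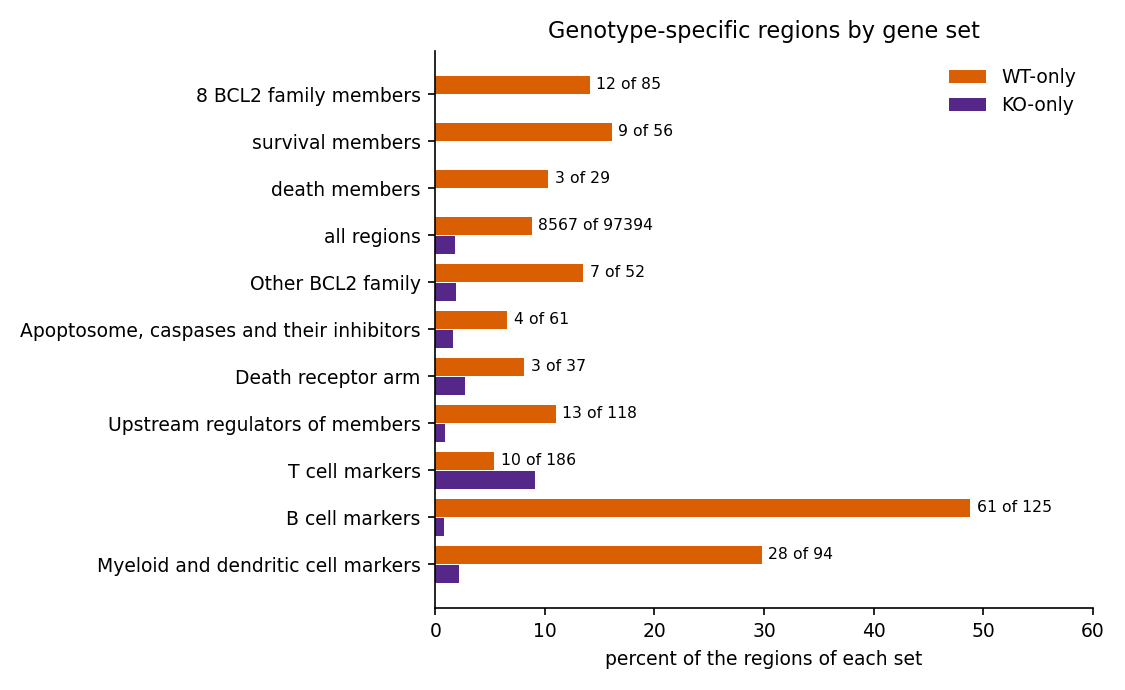
Percent of the regions of each gene set that were WT-only (orange, with the counts beside the bar) and KO-only (purple). The 8 members had 12 of 85 WT-only and none KO-only, and the B cell markers, with 61 of 125, and the myeloid and dendritic cell markers, with 28 of 94, had the longest WT-only bars.

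In the 35 member regions with a peak in every library, ranks were as often separated by genotype as elsewhere. Regions with a peak in every library made up 41.2% of member regions, 27.6% of all regions and 31.4% of those with a gene within 100 kb. Both WT percentiles were above both KO percentiles in 9 regions (25.7%), against 24.0% of all shared regions, and both KO percentiles were above both WT percentiles in 7 (20%), against 22.0%. Gaps of at least 10 points were found in 2 member regions with WT above, where 7.25% of all shared regions had such a gap, and in 3 with KO above, where 8.06% had. These shares are near the background. The median difference of WT minus KO was 2.32 points over the 35 and 0.405 over all shared regions. Of the start-site regions of the genome that were shared, 24.5% had WT above and 12.5% KO above.

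The 2 member regions with the wider WT gaps were the Bbc3 start and a region inside Bcl2l11, 27185 bp downstream of its first start (128152546 to 128153900). The latter had fold enrichments of 6.04 and 6.16 in WT against 2.60 and 5.21 in KO, and percentiles of 43.2 and 42.9 against 1.98 and 20.7. The WT libraries lay close together and the KO libraries lower and far apart, with a gap of 22.2 points. These 2 regions kept WT above KO by the percentile of −log10 q and by the percentile among all peaks of each list.

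The 3 regions with wide KO gaps lay at Mcl1, Bcl2 and Bbc3, outside their starts. The Mcl1 region, 3125 bp past the gene (95666101 to 95666508), had percentiles of 1.78 and 7.02 in WT against 32.6 and 28.0 in KO. The Bcl2 region, 26183 bp inside the gene (106687656 to 106688559), had 22.9 and 3.25 against 41.2 and 46.2. The Bbc3 region, inside the gene past its start (16313965 to 16314451), had 12.6 and 14.3 against 25.4 and 34.1. At Bbc3 the start and this neighbour thus ranked in opposite order between the genotypes. These 3 also kept KO above WT by both other percentiles.

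**Figure D5:**
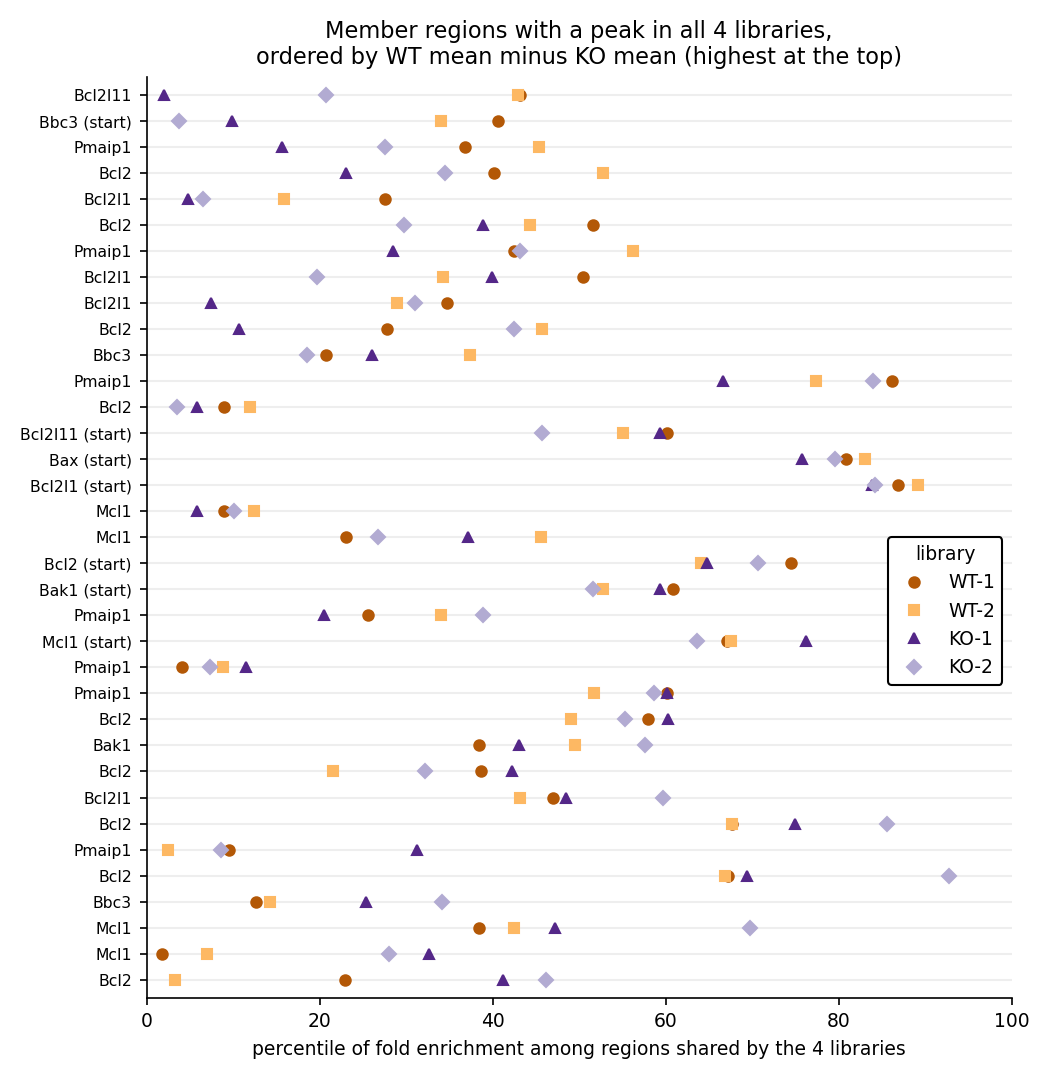
Percentiles (x axis) in the 4 libraries for the 35 member regions with a peak in each, 1 row per region, ordered by the WT mean minus the KO mean. WT symbols lie to the right at the top, as at Bcl2l11 (43.2 and 42.9 against 1.98 and 20.7), and KO symbols at the bottom, as at the Bcl2 region in the last row (41.2 and 46.2 against 22.9 and 3.25), with the genotypes mixed in 19 rows.

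Among other genes of the pathway the WT-only share ran from 6.56% to 13.5% by list. The 15 other BCL2 family genes had 7 WT-only (13.5%) and 1 KO-only region of 52, and 4 of the 7 stood at Bmf, which encodes a further BH3-only protein. Bmf had peaks in 10 and 9 of its 11 regions in WT against 3 and 5 in KO. Both WT counts were above both KO counts in 17.8% of the 16399 genes with a region and in 37.1% of the 1357 with at least 13 regions. The order of the Bmf counts is thus no result about Bmf. Bcl2l15, Bcl2l2 and Hrk had 1 WT-only region each, that of Bcl2l2 being its sole region and over a start site, and Hrk 1 KO-only region too. Bcl2a1a, Bcl2a1d and Bcl2l12 were the nearest gene of no region, and Bcl2a1a, Bcl2a1b and Bcl2a1d are near-identical copies whose reads may not be told apart. Among these genes both KO percentiles were above both WT percentiles in 8 of 22 shared regions (36.4%, against 22.0% of all shared regions) and the reverse held in 5 (22.7%, against 24.0%). Of the 8 with KO above, 4 stood at Bcl2l14 and 2 at Bcl2l15.

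The 16 genes of the apoptosome, caspases and their inhibitors had 4 WT-only (6.56%) and 1 KO-only region of 61. Apaf1, the scaffold that activates caspase-9, had 2 WT-only regions, and Cycs, which encodes cytochrome c, and Bcap31 had 1 each. The 7 genes of the death receptor arm had 3 (8.11%) and 1 of 37, with 1 WT-only region at Cflar, an inhibitor of caspase-8, 1 at the adaptor gene Fadd and 1 of each kind at Tnfrsf1a. The 12 genes that act upstream of the members had 13 (11.0%) and 1 of 118. Foxo1, a forkhead factor of resting T cells, had 6 of these 13, with peaks in 22 and 23 of 31 regions in WT and 14 and 19 in KO. Both WT counts were above both KO counts in 37.1% of the 1357 genes with at least 13 regions, so this order is no result about Foxo1. Stat5b, which passes on survival signals of cytokines, had 2 WT-only regions, Foxo3 2 and 1 KO-only, and the IL-2 receptor gene Il2ra 1 WT-only. Of their shared regions, WT was above in 7 (25.9%) and KO in 4 (14.8%) of 27 for the apoptosome list. For the death receptor arm WT was above in 3 (20%) and KO in 5 (33.3%) of 15. For the upstream genes WT was above in 9 (22%) and KO in 11 (26.8%) of 41. Over all shared regions of the genome, WT was above in 24.0% and KO in 22.0%. In none of the 4 lists was the WT-only share tested against the genome's 8.80%.

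Genes with a like spread of peaks over the 4 libraries were ranked by the Euclidean distance between shares of regions with a peak. Bcl2 had peaks in 63.9% and 69.4% of its regions in WT and in 41.7% and 63.9% in KO. Nearest among 1050 genes with at least 15 regions were Pip4k2a at 0.0269, with 62.5%, 68.8%, 39.6% and 64.6%, then Ppm1h at 0.0321 and Tcf12 at 0.0556. Bcl2l1 had 76.9%, 76.9%, 46.2% and 53.8%, and the nearest of 1354 genes with at least 13 regions were Rnf145 at 0.0317, Poc1b at 0.0448 and Nfia at 0.0544. These rankings rest on 4 libraries and describe shares of peaks alone.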

How the data were processed

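Peak lists of 4 ATAC-seq libraries, each in the 10-column layout of narrow peaks and without header, were used as deposited. The submitters' processing notes name MACS2, BWA, deepTools, Picard and SAMtools and the build GRCm38 (mm10). Versions, settings, transposase shift and filters: not given in the sources used here. The authors deposited for each peak a fold enrichment, a ratio over what the peak caller took as local background, and a −log10 q, here at least 2. These served to describe, rank and filter peaks within a list. Peaks were merged, regions assigned to genes of RefSeq GRCm38.p6 (ties to the first symbol in the alphabet) and percentiles computed in Python 3.11.15 with pandas 2.3.3. The gene table gives no exons, so introns and UTRs were not told apart. The 8 members, the gene lists and the comparisons were chosen with earlier results of these data known. Named regions were those over or nearest a member's start, the WT-only and KO-only regions and the evenly strongest region of a member, and named list genes had genotype-specific regions (up to 4 a list). The gap of 10 points and regions with such gaps were chosen after values were seen. Merging, classes and gene assignment were tested on simulated lists. Alternatives were stricter peaks, the 20000 strongest peaks, a covered share of at least 50%, a window of 10 kb, ties kept for the member, other percentiles, each library left out and a replicate block. Some list genes are not reported here.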

Additional observations from a re-analysis of the deposited data

How the results depend on the processing

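The difference in member regions with a peak kept its sign in each alternative run. The sign was the same over all regions of the genome in the main run, where WT minus KO was 6661.5 regions. A kept sign is thus no result about the members. For the members the difference was 15.5 and 16.5 at a −log10 q of at least 5 and 10, and 5.5 with the 20000 strongest peaks. It was 18.5 with 50% coverage, 9.5 within 10 kb, 12.5 with ties kept and from 5 to 20.5 with a library left out. Replicate numbers are shared by the genotypes, but nothing in the labels pairs them, and deviations from the group means correlated at −0.0329 over shared regions. With the replicate block the difference was 12.5 (exact sign-flip p = 0.5, the smallest it allows). The 12 WT-only regions became 5 and the KO-only count 1 with the 20000 strongest peaks, and they ranged from 14 to 19 and from 1 to 10 with a library left out. Without KO-1, KO-only regions numbered 10, where 22.3% of all regions were KO-only. The counts of shared regions with WT above (9) and KO above (7) were 3 and 3 of 18 at a −log10 q of at least 10. These were 16.7% each, where 22.8% and 20.2% of all shared regions were. With the 20000 strongest peaks they were 2 and 5 of 14 (14.3% and 35.7%, against 21.3% and 19.1%). With 50% coverage they were 6 and 3 of 25 (24% and 12%, against 22.9% and 20.7%). By the percentile among all peaks they were 8 and 4 of 35 (22.9% and 11.4%, against 25.9% and 16.5%). With a library left out they ranged from 15 to 18 and from 11 to 15, as fewer libraries make separation more frequent. Of all shared regions, 35.1% to 40.8% then had WT above and 32.7% to 40.3% KO above. The settings with stricter or fewer peaks leave fewer member regions, and for the others the cause was not tested. Depth is unknown, and KO-1 limits the KO calls.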

Other observations

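Bcl2l11 is followed by a stretch without protein-coding genes, and 16 further regions had it as their nearest protein-coding gene beyond 100 kb, at 132466 to 211553 bp. The closest of them (chromosome 2, 128294516 to 128295510) was open in all libraries, with percentiles of 63.1 and 60.1 in WT and 64.1 and 51.2 in KO, while the farthest region inside the 100 kb, 67338 bp from the gene, had a peak in WT-2, KO-1 and KO-2. Of the 16 regions, 14 lay in Morrbid (128298663 to 128429351), a long noncoding RNA gene known to restrain Bcl2l11 in myeloid cells. Of these 14, 3 were WT-only, where 8.80% of all regions in the genome were. All 14 lie beyond 100 kb of any protein-coding gene, and no share was computed for such regions alone. It must lie below 8.80%, as 9.65% of the regions with a gene within 100 kb were WT-only. The strongest of the 3 WT-only regions (128373780 to 128374420) had fold enrichments of 6.13 and 6.40 in WT. The myeloid markers had more peaks in WT as well, and their part in this was not tested. Of the 4 shared regions, 2 ranked higher in both KO libraries, where 22.0% of all shared regions in the genome did. The stronger of the 2 (128325277 to 128325909) was at 83.3 and 92.3 in KO against 79.1 and 71.0 in WT. These regions share a locus, and neither count was tested. The 22.0% is likewise over all shared regions and not over those this far from a gene.

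Within 50 kb of the members, regions assigned to other genes were few at Bcl2 (3) and absent at Pmaip1, but 22 lay around Bak1, and 8 of these (36.4%) were WT-only, against 9.65% of all regions with a gene within 100 kb. No test was run on this share. They stood at Zbtb9, Ggnbp1 and the calcium channel gene Itpr3. The strongest by its lower fold, at Itpr3 (chromosome 17, 27074138 to 27074637), had fold enrichments of 6.71 and 6.11, while the 2 regions of Bak1 itself were open in every library. Around Bax, 9 of 14 such regions were open in all libraries, where 31.4% of all regions with a gene within 100 kb were, and 0 were WT-only. Neither count was tested against the share over those regions. Upstream of Bcl2l11, in Acoxl, 1 shared region in front of the first start (128117568 to 128118140) had fold enrichments of 5.85 and 5.43 in WT and 6.05 and 10.8 in KO, and thus ranked higher in KO, by a gap of 18.2 points, where the Bcl2l11 first start ranked higher in WT.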
